A study of Mus musculus with 12 samples.

Results

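Transcripts of 10 genes of antigen presentation were followed in mouse haematopoietic stem cells (HSCs) of 6 groups. The genes were taken by symbol from the count files and make up 10 of the 35976 symbols counted. They encode the class I light chain (B2m), class I heavy chains (H2-K1, H2-D1, H2-T23), peptide loading proteins (Tap1, Tapbp), the invariant chain (Cd74) and class II chains (H2-Aa, H2-Ab1, H2-Eb1). The cells had been sorted as negative for lineage markers and positive for c-Kit and Sca-1, from mice labelled as CD38 KO or as WT. Young animals were 2 months old and old ones 24 months. The groups were young KO and young WT cells stimulated with cytokines ex vivo for 24 hours, old KO and old WT cells taken fresh, and young KO and young WT cells taken fresh. Each group had 2 libraries, for 12 in all. The labels do not name the cytokines, the strain, the sex or the deleted part of Cd38. Nothing in them tells if each library was a different animal, and the p-values therefore measure only the spread between these samples. Stimulated cells of old animals were not analysed here.

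Class I molecules sit on nearly all nucleated cells and show peptides made in the cytosol to CD8 T cells. A heavy chain pairs with beta-2-microglobulin, and the TAP transporter and tapasin supply and edit the peptide. Class II molecules show peptides from the endosomal pathway to CD4 T cells and are best known from dendritic cells, macrophages and B cells. The invariant chain fills their groove until a peptide replaces it. Mouse HSCs and progenitors are also known to carry class II molecules and can present antigen with them. Transcription of both classes uses a shared promoter module of S, X and Y boxes, bound by RFX, CREB or ATF, and NF-Y factors. NLRC5 is the coactivator for class I and CIITA for class II.

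Promoter sequences are shown for H2-Aa and H2-Eb1 as class II examples and for H2-K1 and B2m as class I examples, because the 2 classes differed in how they varied between libraries. Each run is the 250 bases before the RefSeq start in the GRCm38.p6 assembly, written 5′ to 3′ on the gene's strand. H2-Aa (chr17:34287824-34288073) and H2-K1 (chr17:34000348-34000597) lie on the minus strand, and H2-Eb1 (chr17:34305617-34305866) and B2m (chr2:122147437-122147686) on the plus strand. Capitals mark matches on either strand to ATTGG (Y box core), TGACG (X2 box core), GGGGATTCC (kappa B site) or GAAANNGAA (interferon response element).
H2-Aa: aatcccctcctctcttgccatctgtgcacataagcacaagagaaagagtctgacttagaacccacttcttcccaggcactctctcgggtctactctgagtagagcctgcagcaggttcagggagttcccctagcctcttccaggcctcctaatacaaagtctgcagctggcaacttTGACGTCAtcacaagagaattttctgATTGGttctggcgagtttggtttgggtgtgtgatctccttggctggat
H2-Eb1: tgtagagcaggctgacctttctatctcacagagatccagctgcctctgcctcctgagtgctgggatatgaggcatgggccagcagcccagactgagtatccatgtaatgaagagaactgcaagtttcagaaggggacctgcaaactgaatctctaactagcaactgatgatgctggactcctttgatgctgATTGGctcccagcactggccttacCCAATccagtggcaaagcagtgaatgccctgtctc
H2-K1: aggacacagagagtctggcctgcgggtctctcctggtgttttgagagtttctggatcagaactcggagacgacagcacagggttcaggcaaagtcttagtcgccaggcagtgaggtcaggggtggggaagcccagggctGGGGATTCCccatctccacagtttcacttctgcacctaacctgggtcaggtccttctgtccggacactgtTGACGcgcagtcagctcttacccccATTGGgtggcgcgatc
B2m: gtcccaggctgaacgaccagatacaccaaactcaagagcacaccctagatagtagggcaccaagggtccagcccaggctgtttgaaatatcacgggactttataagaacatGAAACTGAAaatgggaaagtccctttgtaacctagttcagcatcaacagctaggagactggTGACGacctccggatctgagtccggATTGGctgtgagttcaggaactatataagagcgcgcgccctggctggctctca

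Of the 10 members, 8 matched the RefSeq promoter table by symbol, and Cd74 and H2-Ab1 did not. ATTGG lay in all 8 windows, against 33.8% of the 32851 promoters in the table. TGACG lay in the windows of B2m, H2-K1, H2-D1, Tap1 and H2-Aa, against 17.8% of promoters. In H2-Aa the TGACG on the plus strand overlaps one on the other strand. GGGGATTCC lay in those of H2-K1 and H2-D1, against 0.213%, and GAAANNGAA in those of B2m and H2-T23, against 7.13%. In H2-Aa the start of ATTGG was 48 bases and that of TGACG 74 bases before the gene's start. The same distances were 16 and 41 bases in H2-K1 and 53 and 78 bases in B2m. These are matches to fixed letters, so a variant of a site would be left unmarked, and no factor binding was measured.

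In the GENCODE annotation of GRCm38, 8 members lie in the MHC on chromosome 17. They are Tapbp (chr17:33915899-33929292), H2-K1 (chr17:33996017-34000347), Tap1 (chr17:34187553-34197225), H2-Ab1 (chr17:34257689-34269419), H2-Aa (chr17:34282744-34287823), H2-Eb1 (chr17:34305867-34316674), H2-D1 (chr17:35262730-35267499) and H2-T23 (chr17:36029773-36032855). B2m (chr2:122147686-122153083) and Cd74 lie elsewhere. The tags came from transcript 3′ ends. The last 500 bases of each member's longest coding transcript were therefore compared with transcripts of all other genes in words of 50 bases. For H2-T23, 38.1% of the words occurred in another gene, for H2-D1 9.53% and for H2-K1 0.443%, so reads of H2-T23 and some of H2-D1 may have been lost or split between genes. No word was shared for the other 7 members. Exons of Tap1 overlap those of Psmb9 on the opposite strand by 212 bases, and exons of Tapbp overlap those of Zbtb22 and Gm19412. None of these overlaps lie in the last 500 exonic bases of the member gene. Cd74 overlaps the microRNA gene Mir5107 there by 11 bases.

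Total counts per library ran from 1600155 to 1963635 in young fresh, 2692245 to 3249721 in young stimulated and 3796591 to 5164720 in old fresh cells. Replicates of a stimulated group were far more alike than those of a fresh group. Their dispersion was 0.0301 in stimulated KO, 0.0261 in stimulated WT and 0.233 to 0.295 in the fresh groups. The c-Kit gene Kit was at 191 to 423 CPM and Ly6a, which encodes Sca-1, 39.3 to 177 CPM over the 12 libraries. Cd38 was counted in every library, at 2.32 to 62.8 CPM in KO and 0.998 to 74.4 CPM in WT libraries, and a 3′ tag may lie outside the deleted part. Young fresh WT replicate 1 had no Xist counts and 200 CPM of Y-linked genes, whereas the other 11 libraries had Xist and at most 6.62 CPM of Y-linked genes. For stimulation, age and young fresh KO against WT, the class II values are also given without this library.

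Levels are CPM, counts scaled to a common library total, with TMM-scaled library sizes. A 3′ tag library yields a tag near the end of each transcript, so CPM was not divided by length, and differences in priming between genes are not corrected. B2m made up 40.0% to 53.6% of the summed CPM of the 10 genes in a library, and H2-K1 26.7% to 47.9%. The 4 class II genes together had 28.0 to 344 CPM and the 4 class I chains 4639 to 7403 CPM. Each gene's 12 values are shown in the plot of levels by library.

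**Figure D1:**
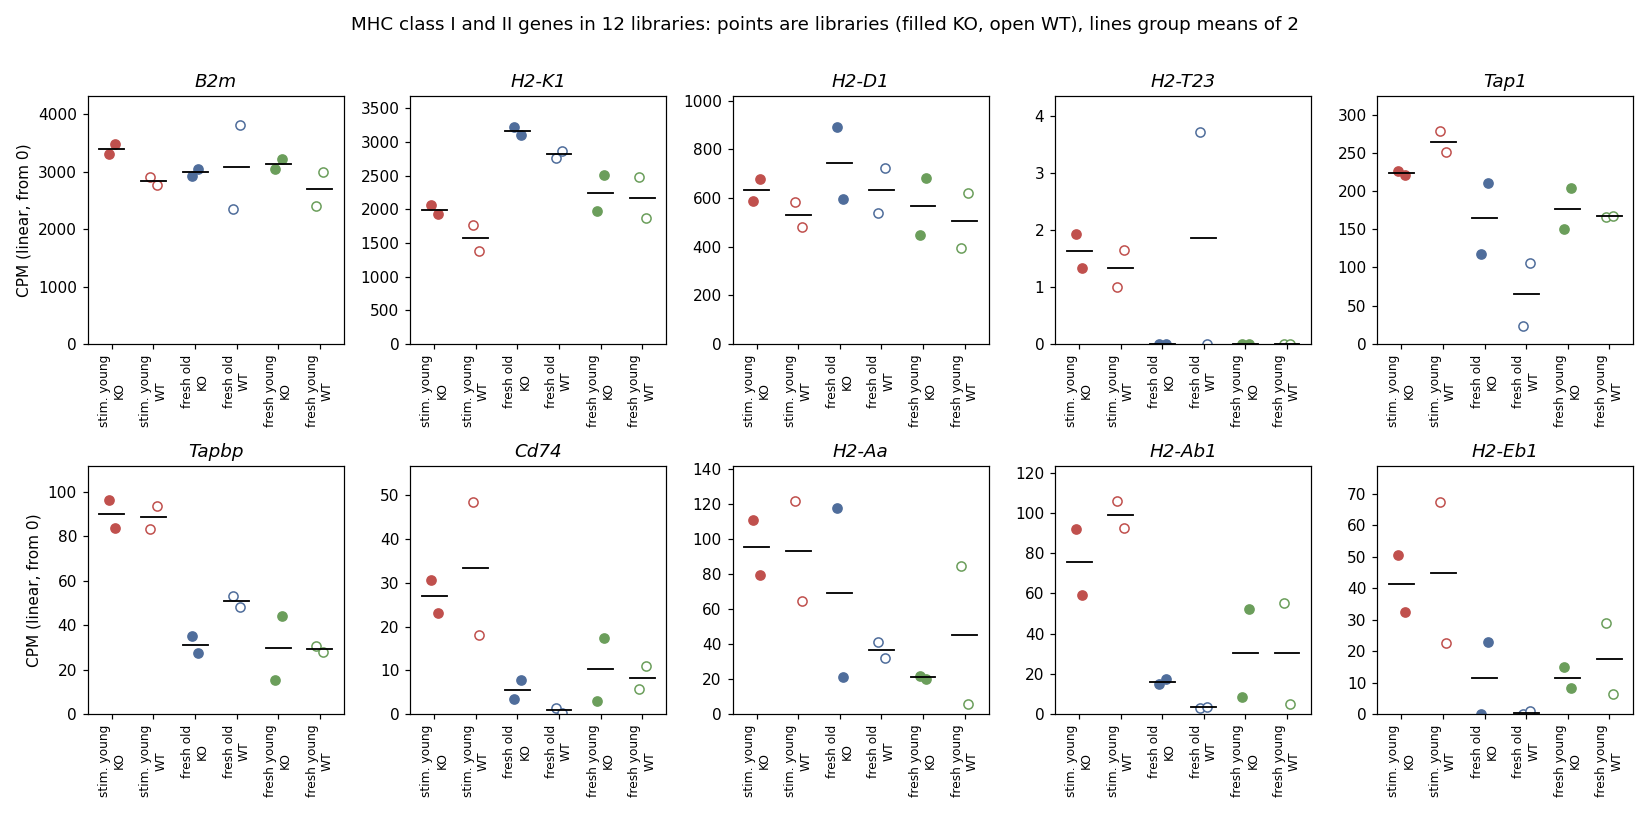
Levels of the 10 genes in CPM on linear axes from 0, with a point for each of the 12 libraries (filled KO, open WT) and a line at the mean of the 2 libraries of a group. B2m stays between 2351 and 3811 CPM, whereas H2-Ab1 spans 2.92 to 106 CPM.

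B2m encodes beta-2-microglobulin. It had 3313 and 3478 CPM in stimulated KO and 2905 and 2769.6 CPM in the stimulated WT libraries. Old fresh KO libraries had 2928 and 3056 CPM and old fresh WT libraries 2351 and 3811 CPM. Young fresh KO libraries had 3054 and 3224 CPM and young fresh WT libraries 2400.2 and 2991 CPM. Both KO libraries exceeded both WT libraries in stimulated and in young fresh cells, whereas the old WT libraries lay on either side of the old KO ones. From the highest group mean to the lowest the ratio was 1.26.

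H2-K1 encodes a classical class I heavy chain. It had 2062 and 1929.8 CPM in stimulated KO and 1769 and 1386 CPM in the stimulated WT libraries. In old fresh cells there were 3219 and 3101 CPM in KO and 2768 and 2869 CPM in WT libraries. In young fresh cells there were 1977 and 2506 CPM in KO and 2474 and 1866 CPM in WT libraries. The order of group means was old KO, old WT, young fresh KO, young fresh WT, stimulated KO and stimulated WT. All 4 old libraries exceeded all 8 young ones. Young fresh KO and WT overlapped, as did young fresh and stimulated libraries.

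H2-D1 encodes the other classical heavy chain of this list. It had 589 and 677 CPM in stimulated KO and 582 and 482 CPM in the stimulated WT libraries. Among old fresh libraries, KO had 891 and 596 CPM and WT 539 and 723 CPM. Among young fresh libraries, KO had 449.6 and 684 CPM and WT 393 and 619 CPM. Every group overlapped at least 1 other, and the ratio of the highest to the lowest group mean was 1.47. H2-K1 had 2.85 to 6.30 times the CPM of H2-D1 within a library.

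H2-T23 encodes Qa-1, a non-classical heavy chain that shows signal peptides to NK cell receptors. It had 7 and 4 counts in stimulated KO and 3 and 5 counts in stimulated WT libraries. Old fresh WT replicate 1 had 14 counts, and the other 7 fresh libraries had 0 counts. The gene was too low for the test in every comparison. Against a floor of 3 counts over the young fresh libraries of the same genotype, it was at least 2.14-fold higher in stimulated KO and at least 1.48-fold higher in stimulated WT cells. The floor leaves out the counting error of the stimulated libraries. With that error included, the exact 95% lower limit of the ratio was 1.46 in KO and 0.946 in WT cells, so the difference in WT did not exceed counting error.

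Tap1 encodes a subunit of the peptide transporter. It had 226 and 222 CPM in stimulated KO and 279 and 251 CPM in the stimulated WT libraries. Old fresh KO libraries had 118 and 211 CPM and old fresh WT libraries 23.6 and 106 CPM. Young fresh KO libraries had 150.0 and 204 CPM and young fresh WT libraries 166 and 168 CPM. Every stimulated library exceeded every fresh young one, and old WT replicate 1 was the lowest of all 12.

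Tapbp encodes tapasin, which holds empty class I molecules at the transporter. It had 96.3 and 83.8 CPM in stimulated KO and 83.5 and 93.4 CPM in the stimulated WT libraries. In old fresh cells there were 35.0 and 27.3 CPM in KO and 53.1 and 48.3 CPM in WT libraries. In young fresh cells there were 15.3 and 44.0 CPM in KO and 30.7 and 28.0 CPM in WT libraries. The 4 stimulated libraries stood above all 8 fresh ones.

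Cd74 encodes the invariant chain. It had 30.6 and 23.2 CPM in stimulated KO and 48.6 and 18.2 CPM in the stimulated WT libraries. Among old fresh libraries, KO had 3.48 and 7.65 CPM and WT 1.33 and 0.3 CPM. Among young fresh libraries, KO had 3.06 and 17.3 CPM and WT 5.64 and 10.9 CPM. The stimulated libraries were the 4 highest and the old WT libraries the lowest pair. The lowest value, in old WT replicate 2, rested on 1 count.

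H2-Aa encodes the class II alpha chain I-A alpha. It had 111 and 79.8 CPM in stimulated KO and 122 and 64.4 CPM in the stimulated WT libraries. Old fresh KO libraries had 118 and 20.9 CPM and old fresh WT libraries 41.2 and 32.1 CPM. Young fresh KO libraries had 21.9 and 19.9 CPM and young fresh WT libraries 84.7 and 5.71 CPM. Replicates differed widely in young fresh WT, where the library with the Y-linked counts was 14.8 times the other, and in old KO, where the ratio was 5.63. Stimulated and fresh libraries overlapped.

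H2-Ab1 encodes I-A beta, the partner of H2-Aa. It had 91.9 and 59.3 CPM in stimulated KO and 106 and 92.4 CPM in the stimulated WT libraries. In old fresh cells there were 15.1 and 17.2 CPM in KO and 2.92 and 3.6 CPM in WT libraries. In young fresh cells there were 8.68 and 52.4 CPM in KO and 55.2 and 5.14 CPM in WT libraries. The 4 stimulated libraries exceeded all 8 fresh ones, and both old WT libraries lay below every other. Replicates of young fresh cells differed 6.03-fold in KO and 10.7-fold in WT.

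H2-Eb1 encodes I-E beta. It had 50.5 and 32.5 CPM in stimulated KO and 67.5 and 22.5 CPM in the stimulated WT libraries. Among old fresh libraries, KO had 0 and 22.8 CPM and WT 0 and 0.901 CPM. Among young fresh libraries, KO had 14.8 and 8.38 CPM and WT 28.9 and 6.28 CPM. Stimulated and fresh young libraries overlapped, and 2 of the 4 old libraries had no counts.

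In stimulated against fresh young cells, averaged over both genotypes, the 4 class II genes and both loading genes had higher means after stimulation, whereas the log2 fold changes of the class I chains were -0.32 to 0.12. None of the 9 tested members passed edgeR's quasi-likelihood test at an adjusted p under 0.05, where 4.12% of all 10786 genes tested did. 4 of the 9 had an unadjusted p under 0.05, as did 24.4% of all genes. DESeq2 called 1 member, Tapbp, and voom (limma) with group weights called 0. In 4 of the 9 tested members, Tap1, Tapbp, Cd74 and H2-Ab1, all stimulated libraries exceeded all young fresh ones, as in 13.9% of tested genes. No member lay below in all, as 5.52% of genes did. H2-T23, which was not tested, also had counts in stimulated libraries alone among the young ones. In bulk samples, fewer cells of a type and less RNA per cell cannot be told apart.

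Tapbp had the smallest p of the members. Its mean was 90.0 ± 8.86 CPM in stimulated KO and 88.5 ± 7.02 CPM in the stimulated WT cells, against 29.6 ± 20.3 CPM in young fresh KO and 29.4 ± 1.94 CPM in young fresh WT cells (SD, n = 2 each). The log2 fold change was 1.60 ± 0.39 (SE), with a 95% interval of 0.71 to 2.48 and an adjusted p of 0.0568 by edgeR. For Tap1 the log2 fold change was 0.50 ± 0.16, with an interval of 0.13 to 0.87 (adjusted p = 0.104 by edgeR). The call for Tapbp turned on the library set and the tool. Its adjusted p was 0.0215 without young fresh KO replicate 3, with a log2 fold change of 1.33. Without young fresh KO replicate 4 it was 0.0095, with a log2 fold change of 2.08, and Tap1 also passed there (0.63, adjusted p = 0.0312 by edgeR), as did Cd74 (2.57, adjusted p = 0.0442). With any stimulated library left out, the adjusted p of Tapbp was 0.257 to 0.31 by edgeR, at log2 fold changes of 1.56 to 1.66.

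The class II genes had log2 fold changes of similar size with wide intervals. They were 1.70 ± 0.76 for Cd74 (adjusted p = 0.217 by edgeR) and 1.61 ± 0.68 for H2-Aa (adjusted p = 0.195), and 1.51 ± 0.75 for H2-Ab1 (adjusted p = 0.261) and 1.59 ± 0.67 for H2-Eb1 (adjusted p = 0.192). The median of these 4 was 1.60, and that of all tested genes 0.21. Under each of the 14 alternatives run, the 4 signs were positive. The 3 class II chains moved most without young fresh WT replicate 1, the library with the Y-linked counts. H2-Aa was then at 3.11 ± 0.40 and passed (adjusted p = 0.0262 by edgeR). H2-Ab1 was at 2.79 ± 0.73 and H2-Eb1 at 2.34 ± 0.63, which did not pass (adjusted p = 0.0735 and 0.0771 by edgeR), and Cd74 at 1.52 ± 0.79. Without the other young fresh WT library the values of the 3 chains were 1.16 for H2-Aa, 1.08 for H2-Ab1 and 1.24 for H2-Eb1.

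Class I chains had smaller log2 fold changes between the states, and none passed. For B2m the estimate was 0.09 ± 0.09, with an interval of -0.12 to 0.31 (adjusted p = 0.589 by edgeR). It was -0.32 ± 0.14 for H2-K1, with an interval of -0.64 to 0.01 (adjusted p = 0.213). For H2-D1 it was 0.12 ± 0.19, with an interval of -0.33 to 0.56 (adjusted p = 0.767). The intervals of B2m and H2-D1 included 0 and lay below the estimates for Tapbp and the class II genes. Leaving out young fresh WT replicate 1 or young fresh KO replicate 3 turned the sign of H2-D1.

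**Figure D2:**
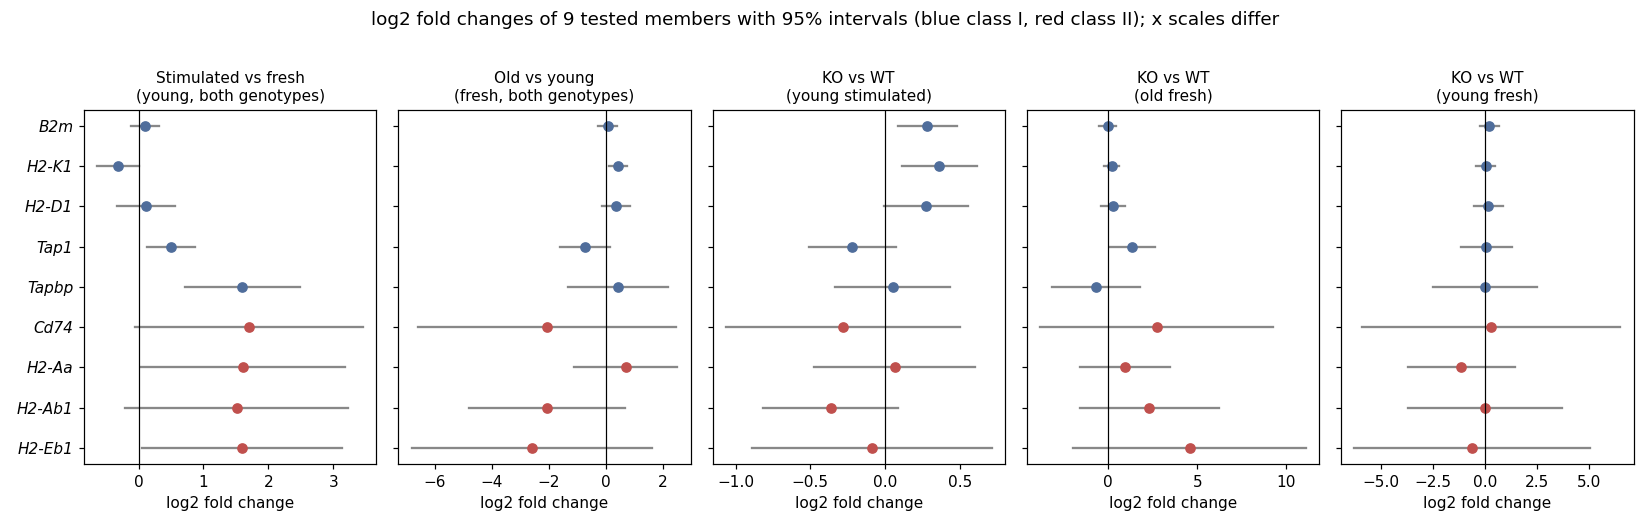
Log2 fold changes of the 9 tested members in 5 comparisons, the first-named group over the second, with 95% intervals (blue class I chains and loading genes, red class II). Scales differ between panels, and the class II intervals are several times wider in fresh cells than in stimulated KO against WT.

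Marker sums of monocytes and macrophages, dendritic cells, B cells, and T and NK cells were higher in all stimulated than in all young fresh libraries, whereas those of neutrophils were lower and those of endothelial and stromal cells overlapped. The 4 class II genes summed to 195 and 284 CPM in stimulated KO and 197 and 344 CPM in the stimulated WT libraries. In young fresh libraries they summed to 48.5 and 97.9 CPM in KO and 28.0 and 174 CPM in WT. The 12 monocyte and macrophage markers summed to 317 to 395 CPM in stimulated KO, 373 to 434 CPM in stimulated WT, 41.9 to 103 CPM in young fresh KO and 191 to 216 CPM in young fresh WT. All 12 had counts in both stimulated groups, and 6 were at 0 in young fresh KO and 4 in young fresh WT, with Csf1r, Fcgr1 and Cd14 at 0 in both.

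The 10 dendritic cell markers summed to 161 to 206 CPM in stimulated KO and 208 to 260 CPM in the stimulated WT libraries, against 133 to 150 CPM in young fresh KO and 98.3 to 127 CPM in young fresh WT. Most of this sum was Bst2, which many blood cells express, at a mean of 192 CPM in stimulated and 114 CPM in young fresh cells. Itgax, Clec9a and Xcr1 had means of 4.16, 4.42 and 2.67 CPM in stimulated cells and no counts in young fresh ones. Siglech and Cd83 had means of 0.662 and 0.841 CPM in stimulated cells, against 8.62 and 2.62 CPM in young fresh cells, where the counts of each came from 1 library. The 10 B cell markers summed to 25.9 to 31.5 CPM in stimulated KO and 51.9 to 208 CPM in stimulated WT, against 3.14 to 21.9 CPM in young fresh KO and 0.627 to 10.9 CPM in young fresh WT. Cd79a and Ms4a1 were at 0 in all 4 of these groups. The 9 T and NK cell markers summed to 113 to 148 CPM in stimulated KO and 148 to 231 CPM in stimulated WT libraries. In young fresh libraries the sums were 18.3 to 34.7 CPM in KO and 14.3 to 15.1 CPM in WT. Most of this sum was Nkg7, at a mean of 152 CPM in stimulated and 20.4 CPM in young fresh cells. Klrb1c had means of 7.54 and 0.143 CPM there. The T cell markers Cd3e, Cd2, Cd4 and Cd8a were at 0 in all 4 groups.

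The 6 neutrophil markers summed to 748 to 931 CPM in stimulated KO and 882 to 1451 CPM in stimulated WT libraries, against 4934 to 6538 CPM in young fresh KO and 5183 to 9486 CPM in young fresh WT. Of these markers S100a8, S100a9, Ngp and Camp fell, by 2.33 to 3.99 on the log2 scale (adjusted p of 0.00419 or less by edgeR). Ltf had a log2 fold change of -3.39 (adjusted p = 0.132 by edgeR), and Ly6g was at 0 in all 4 groups. The 6 endothelial and stromal markers summed to 19.0 to 28.5 CPM in stimulated KO and 15.2 to 21.3 CPM in stimulated WT libraries, against 46.6 to 51.5 CPM in young fresh KO and 24.6 to 47.0 CPM in young fresh WT. The part of any of these cells in the class II levels was not tested.

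**Figure D3:**
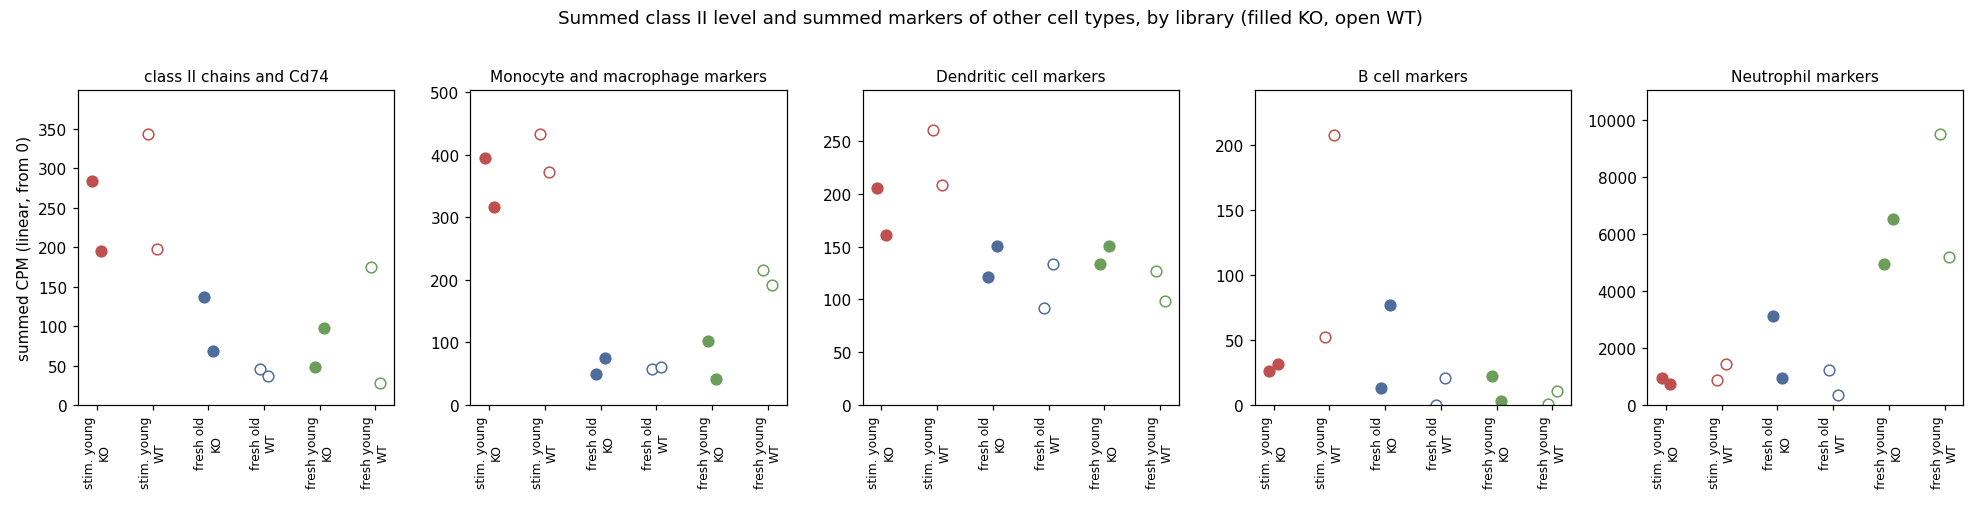
Summed CPM of Cd74 and the 3 class II chains, and of the marker lists of monocytes and macrophages, dendritic cells, B cells and neutrophils, with a point for each library (filled KO, open WT). The stimulated libraries have the 4 highest class II sums, 195 to 344 CPM, and the 4 highest sums of monocyte and dendritic cell markers, and their neutrophil sums, 748 to 1451 CPM, lie below those of all young fresh libraries.

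Of 51 related genes of antigen processing, 50 were in the files and 39 were tested in this comparison, of which 5 rose and 0 fell after stimulation, where 2.27% of all genes rose and 1.84% fell. Their median log2 change was 0.36, and 0.21 over all genes. Tap2, the other transporter subunit, had 222 and 215 CPM in stimulated KO and 216 and 309 CPM in the stimulated WT libraries, against 49.5 and 57.1 CPM in young fresh KO and 22.6 and 49.1 CPM in young fresh WT libraries. No stimulated library overlapped a fresh one. Its log2 fold change was 2.45 ± 0.28 (adjusted p = 0.00416 by edgeR), and it passed under each of the 14 alternatives, with a highest adjusted p of 0.0319.

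Psmb8, a subunit of the immunoproteasome that cuts class I peptides, rose by 1.10 ± 0.18 on the log2 scale (adjusted p = 0.0184 by edgeR). Pdia3, the disulfide isomerase of the loading complex, rose by 0.83 ± 0.15 (adjusted p = 0.0257 by edgeR). H2-T22, a non-classical heavy chain, rose by 1.44 ± 0.31 (adjusted p = 0.0434 by edgeR). Irf8, a transcription factor of monocyte and dendritic cell development, rose by 4.98 ± 1.10 (adjusted p = 0.0462 by edgeR). Its counts were 129 and 81 in stimulated KO and 226 and 226 in stimulated WT, against 0 and 3 in young fresh KO and 9 and 0 in young fresh WT libraries. The log2 fold change of Irf8 was 7.94 without young fresh WT replicate 1 and 7.03 without young fresh KO replicate 4, which held all fresh counts of their genotype. Pdia3 did not pass without young fresh WT replicate 2 (adjusted p = 0.0535 by edgeR). Each of the 4 genes failed to pass whichever stimulated library was left out, with adjusted p of up to 0.137 for Psmb8, 0.172 for Pdia3, 0.31 for H2-T22 and 0.222 for Irf8.

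**Figure D4:**
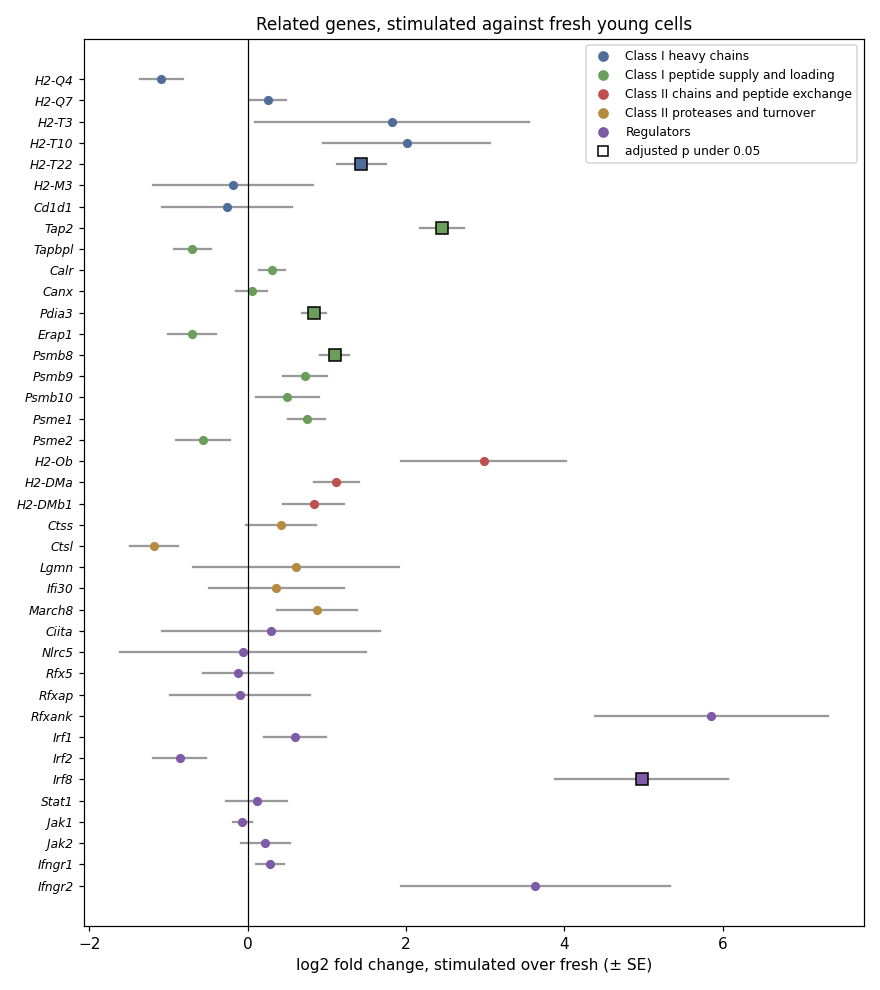
Log2 fold changes of the 39 tested related genes, stimulated over fresh young cells, with standard errors. Colours mark the gene's role and squares the 5 genes with an adjusted p under 0.05, all of them to the right of 0.

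The coactivators were low. Ciita had 4.14 and 3.31 CPM in stimulated KO and 5.99 and 3.63 CPM in the stimulated WT libraries. It had 4.59 and 0 CPM in young fresh KO and 0 and 10.3 CPM in young fresh WT libraries. Old fresh KO libraries had 27.3 and 0 CPM and old fresh WT libraries 0.266 and 3.9 CPM. All 4 stimulated libraries had a few CPM, whereas fresh replicates differed between none and several, and the highest value stood in old KO replicate 3. Nlrc5 had 14.6 and 14.2 CPM in stimulated KO and 7.98 and 14.9 CPM in the stimulated WT libraries. Young fresh KO libraries had 81.7 and 0 CPM and young fresh WT libraries 8.78 and 0 CPM. In old fresh cells there were 46.3 and 12.2 CPM in KO and 30.3 and 28.8 CPM in WT libraries. In young fresh cells Nlrc5 thus had counts in 1 replicate of each genotype and none in the other.

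In old against young fresh cells, averaged over both genotypes, H2-K1 was the member whose groups did not overlap, and the class II genes varied too much for a direction. None of the 9 tested members passed edgeR's test, where 2.72% of all 10680 genes tested did. H2-K1 had an unadjusted p under 0.05, as did 13.2% of genes. DESeq2 called 1 member, H2-K1, and voom (limma) with group weights called 0. The share of genes with all old libraries above all young ones was 4.83%. Young fresh libraries serve here and in the comparison with stimulated cells, so the 2 are not independent.

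H2-K1 had 3160.4 ± 83.4 CPM in old KO and 2819 ± 71.5 CPM in old WT cells, against 2241 ± 374 CPM in young fresh KO and 2170.2 ± 430.0 CPM in young fresh WT cells (SD, n = 2 each). The log2 fold change was 0.43 ± 0.15, with an interval of 0.11 to 0.74 (adjusted p = 0.179 by edgeR). With DESeq2 it was 0.40 (adjusted p = 0.0334). On the log2 scale the difference was 0.05 ± 0.16 for B2m and 0.35 ± 0.23 for H2-D1 (adjusted p = 0.963 and 0.581 by edgeR). Without young fresh WT replicate 1 the value for B2m was -0.02, and without old WT replicate 2 it was -0.14.

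The log2 fold change of Tap1 was -0.74 ± 0.42, with an interval of -1.61 to 0.13 (adjusted p = 0.478 by edgeR). Without old WT replicate 2 it was -1.46 ± 0.44 and passed (adjusted p = 0.0272 by edgeR), and without old WT replicate 1 it was -0.38 ± 0.40 (adjusted p = 0.863). That of Tapbp was 0.42 ± 0.84 (adjusted p = 0.915 by edgeR). Among class II genes the log2 fold change was -2.08 ± 2.16 for Cd74, -2.07 ± 1.30 for H2-Ab1 and -2.61 ± 2.01 for H2-Eb1. For H2-Aa it was 0.70 ± 0.86, and -0.16 without old KO replicate 3. Without young fresh WT replicate 1 the values were -2.27 for Cd74, 2.19 for H2-Aa, -0.79 for H2-Ab1 and -1.87 for H2-Eb1. With all libraries their adjusted p-values ran from 0.544 to 0.815 by edgeR, and every interval included 0.

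The old WT libraries held the lowest pair of values of Cd74 and H2-Ab1. H2-Eb1 had 3 counts over the old WT and 57 over the young fresh WT libraries, a ratio of 0.0248 per effective library size (95% counting interval 0.00497 to 0.0763). Of the 57 counts, 46 came from young fresh WT replicate 1, and without it the ratio was 0.0673 (0.0121 to 0.255). These intervals cover counting error only and not the spread between libraries. By edgeR the log2 fold change of H2-Eb1 with age was -5.20 ± 3.22 in WT, with an interval of -11.9 to 1.55. In KO it was -0.022 ± 2.68, with an interval of -5.64 to 5.59. Age went with other differences between the libraries, not all of them in both genotypes. In WT, monocyte and macrophage markers summed to 56.9 to 61.2 CPM in old and 191 to 216 CPM in young fresh libraries. In KO the sums overlapped, at 50.1 to 75.7 CPM in old and 41.9 to 103 CPM in young fresh libraries. The 6 neutrophil markers summed to 942 to 3103 CPM in old KO and 366 to 1240.0 CPM in old WT, against 4934 to 6538 CPM in young fresh KO and 5183 to 9486 CPM in young fresh WT. Old libraries were also deeper than young fresh ones. The part of these differences in the levels was not tested.

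Of the related genes 37 were tested with age, and 1 fell and 0 rose, where 0.964% of all genes fell and 1.76% rose. Calr encodes calreticulin, a chaperone of the loading complex and of other glycoproteins. It had 151 and 200.3 CPM in old KO and 174 and 199.9 CPM in old WT libraries, against 761 and 603 CPM in young fresh KO and 685 and 579 CPM in young fresh WT libraries. All old libraries lay below all young ones. The log2 fold change was -1.87 ± 0.23 (adjusted p = 6.81e-05 by edgeR), and Calr passed under each of the 14 alternatives, with a highest adjusted p of 0.00828.

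In stimulated KO against stimulated WT cells, B2m, H2-K1 and H2-D1 had higher values in both KO libraries than in both WT libraries, and Tap1 and H2-Ab1 lower ones. None of the 9 tested members passed edgeR's test, where 1.23% of all 10494 genes tested did. 2 had an unadjusted p under 0.05, as did 10.9% of genes. DESeq2 called 0 members, and voom (limma) with group weights called 2, B2m and H2-K1. Among all tested genes the KO libraries both lay above the WT libraries for 19.5% and below for 22.6%.

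B2m had 3396 ± 117 CPM in KO and 2837 ± 95.8 CPM in WT cells (SD, n = 2 each). Its log2 fold change was 0.28 ± 0.09, with an interval of 0.08 to 0.48 (adjusted p = 0.207 by edgeR). H2-K1 had 1996 ± 93.3 CPM in KO and 1577 ± 271 CPM in WT cells, for a log2 fold change of 0.36 ± 0.12, with an interval of 0.11 to 0.62 (adjusted p = 0.2 by edgeR). Without stimulated WT replicate 1 it was 0.55 (adjusted p = 0.0002998 by edgeR), and without stimulated WT replicate 2 it was 0.20 (adjusted p = 0.61). H2-D1 had a log2 fold change of 0.28 ± 0.13 (adjusted p = 0.474 by edgeR). In a single fit of all 12 libraries, where fresh libraries enter the estimate of spread, the smallest adjusted p of a member was 1.

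No loading or class II gene passed between the stimulated genotypes. On the log2 scale the difference was -0.22 ± 0.14 for Tap1, with an interval of -0.51 to 0.07, and 0.05 ± 0.18 for Tapbp, with an interval of -0.34 to 0.44. For H2-Ab1 it was -0.36 ± 0.21, with an interval of -0.81 to 0.09. The intervals were -1.07 to 0.50 for Cd74, -0.47 to 0.60 for H2-Aa and -0.89 to 0.71 for H2-Eb1. The adjusted p of these 6 genes was 0.58 or more by edgeR, which does not show that the genotypes were alike.

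Of 39 related genes tested between the stimulated genotypes, 2 fell and 0 rose in KO, where 0.467% of all genes fell and 0.762% rose. Irf8 had 35.6 and 26.8 CPM in KO and 75.2 and 74.6 CPM in WT libraries, for a log2 fold change of -1.23 ± 0.23 (adjusted p = 0.0162 by edgeR). H2-Ob, a chain of the class II regulator H2-O, had 13.0 and 15.9 CPM in KO and 32.6 and 67.0 CPM in WT libraries. Its log2 fold change was -1.77 ± 0.34 (adjusted p = 0.0192 by edgeR). Neither passed in the fit of 12 libraries (adjusted p = 1) or without stimulated KO replicate 3 or 4, and H2-Ob did not pass without WT replicate 2, where the log2 fold change was -1.15. H2-Ob is known from B cells and thymic epithelium, and the B cell marker sums given above were 25.9 to 31.5 CPM in KO and 51.9 to 208 CPM in WT. Most of the WT sum was Vpreb1, at 77.0 ± 67.1 CPM in WT and 9.13 ± 6.28 CPM in KO (SD, n = 2 each). Cd79b averaged 13.9 CPM in WT and 15.5 CPM in KO, and Cd22 0 and 1.79 CPM. The other B cell markers with counts had lower means in KO. The part of B cells was not tested.

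In young fresh KO against WT cells no member had an unadjusted p under 0.05, and the adjusted p was 1 for each of the 9 tested. The background was 0% of 10680 genes by edgeR, with 4.86% at an unadjusted p under 0.05. DESeq2 and voom (limma) with group weights also called 0 members. B2m was the member whose KO libraries both exceeded the WT libraries, as 14.7% of genes did. Its log2 fold change was 0.21 ± 0.22, with an interval of -0.26 to 0.68. For H2-K1 the interval was -0.41 to 0.48 and for H2-D1 -0.54 to 0.85. For H2-Ab1 it was -3.71 to 3.71, so a large change in either direction would not have been detectable. The log2 fold change of H2-Aa was -1.12 ± 1.23 with all libraries and 1.85 without WT replicate 1, the library with Y-linked counts. Without it the values were -0.10 for Cd74, 2.55 for H2-Ab1 and 0.87 for H2-Eb1, against 0.29, 0.0031 and -0.61 with all libraries.

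In old fresh KO against WT cells Tap1, Cd74, H2-Ab1 and H2-K1 were higher in both KO libraries and Tapbp was lower in both. None of the 9 tested members passed, with an adjusted p of 1 for each, where 0% of 10680 genes passed by edgeR. DESeq2 and voom (limma) with group weights called 0 members. Tap1 had an unadjusted p under 0.05, as did 4.01% of genes. The KO libraries lay above the WT libraries for 16.5% of genes and below for 16.7%.

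Tap1 had 164 ± 65.5 CPM in old KO and 64.8 ± 58.2 CPM in old WT cells (SD, n = 2 each). Its log2 fold change was 1.35 ± 0.59, with an interval of 0.11 to 2.60 (adjusted p = 1 by edgeR). Without old WT replicate 2 it was 2.79 ± 0.74 (adjusted p = 0.0452 by edgeR), a comparison with the single library of 23.6 CPM, whose spread is assumed to be that of the other groups. Without old WT replicate 1, that library, it was 0.63 ± 0.63 (adjusted p = 1 by edgeR). The log2 fold changes of the class II genes were 2.72 ± 3.13 for Cd74, 0.93 ± 1.22 for H2-Aa and 2.30 ± 1.86 for H2-Ab1. For H2-Eb1 it was 4.56 ± 3.12, with an interval of -1.98 to 11.1. H2-Eb1 had 110 counts in old KO, all in replicate 4, and 3 in old WT. The ratio was 28.4 (95% counting interval 9.48 to 140.0), with no counts in KO replicate 3. The counting interval covers counting error only and not the spread between libraries. The 10 B cell markers summed to 13.0 to 77.0 CPM in old KO and 0.266 to 20.7 CPM in old WT, and the 6 neutrophil markers to 942 to 3103 CPM in old KO and 366 to 1240.0 CPM in old WT, so both sums overlapped between genotypes. Single markers of these and other lists did not overlap between genotypes, in both directions. Ngp averaged 60.1 CPM in old KO and 1.86 CPM in old WT (unadjusted p = 7.87e-05, adjusted p = 0.14 by edgeR) and Camp 107 CPM in old KO and 7.04 CPM in old WT (adjusted p = 0.243). The monocyte marker Ly6c2 averaged 29.1 CPM in old KO and had no counts in old WT (adjusted p = 1). Zbtb46 of the dendritic cell list averaged 7.48 CPM in old KO and had no counts in old WT. Of the other monocyte and macrophage markers, Lyz2 averaged 26.6 CPM in old KO and 50.2 CPM in old WT, and C1qa and C1qc had no counts in old KO and 1.48 and 3.76 CPM in old WT. The part of such cells was not tested.

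Whether the change with stimulation or with age differed between genotypes was tested with an interaction term. None of the 9 members passed for stimulation, with differences from -0.58 to 1.18 on the log2 scale (KO minus WT) and a smallest adjusted p of 0.782 by edgeR. None passed for age, with differences from -0.69 to 5.17 and a smallest adjusted p of 0.914. In both, 0% of all genes passed and no member had an unadjusted p under 0.05, as 9.56% of genes did for stimulation and 5.5% for age. DESeq2 and voom (limma) with group weights also called 0 members in both.

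The genes most like Cd74 in level over the 12 libraries were sought among 6451 genes averaging 20 CPM or more, by Pearson's r of log2 CPM with 1 added. They were Cln6, a lysosomal disease gene (r = 0.941), Hdc, the histidine decarboxylase of basophils and mast cells (0.912), Ly6c2, a monocyte surface protein (0.912), Taldo1, of the pentose phosphate pathway (0.911), and Smc4, a condensin subunit (0.908). For B2m they were Rsrc2 (0.866), Ctu1 (0.82), Orai3 (0.801), 2810428I15Rik (0.793) and Eif6 (0.791). Old WT replicate 2 had the highest level of B2m and of each of these genes except Eif6, with 329 CPM of Rsrc2 and 107 CPM of Ctu1. Old WT replicate 1 had the lowest level of B2m, Rsrc2, 2810428I15Rik and Eif6. The likeness to B2m thus rested largely on the old WT libraries. The 12 libraries also fall into stimulated and fresh sets and share depth and state, so the correlations describe the libraries and carry no test. Ly6c2 had 197 to 272 CPM in the stimulated libraries and 0 to 49.6 CPM in the fresh ones.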

How the data were processed

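RNA was extracted with RNeasy Plus Micro columns and made into QuantSeq FWD 3′ libraries, per the labels' protocols. The deposited values are raw counts per gene symbol. The authors' tools were HISAT2 2.2.1, HTSeq 0.9.1 and DESeq2 1.34.0 with the build mm10, per the submitters' processing notes. Which annotation and strand setting were used is not given in the sources used here, so reads of genes that overlap on opposite strands may not have been told apart.

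From these counts, edgeR 4.0.16 (R 4.3.3) gave TMM scaling and the quasi-likelihood test. Genes passed filterByExpr at min.count 10 and min.total.count 15. P-values were adjusted over all genes of a fit with the Benjamini-Hochberg method, with a threshold of 0.05. The 8 young libraries gave the stimulation results (10786 genes), the 8 fresh libraries the age and fresh KO results (10680 genes) and the 4 stimulated libraries the stimulated KO results (10494 genes). H2-T23 failed the filter in all 3 fits and the other 9 members passed. A group at 0 counts was bounded with 3 counts over the group. Gene positions and 3′ end comparisons used GENCODE vM21, and promoters came from RefSeq (GRCm38.p6).

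All members were named, together with related genes that passed, at most 6 by the smallest p, and Ciita and Nlrc5. The members and lists were chosen with earlier results of these data known. Alternatives were RLE scaling, no filter, DESeq2 1.42.0, a fit of all 12 libraries, voom (limma 3.58.1) with group weights, a replicate block and each library left out in turn. The test was tried on simulated data with known changes. Their spread was set below the common dispersion of the fits with fresh libraries (1.07 for fresh and 0.436 for young libraries). The trial therefore does not show how the test performs at that spread.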

Additional observations from a re-analysis of the deposited data

How the results depend on the processing

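Of 495 values of single members under the alternatives, 441 kept their sign and their side of the threshold, 17 passed only under the alternative and 37 changed sign. The causes were not tested.

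The count of members past the threshold, 0 in every comparison, became 1 for stimulation without a filter and with DESeq2 (Tapbp in both) and 3 with the replicate block (Tapbp, H2-Aa and H2-Ab1, at adjusted p = 0.0382, 0.0124 and 0.0422 by edgeR). It became 1 for age with DESeq2 (H2-K1), and for stimulated KO against WT 1 without a filter (H2-K1) and 2 with voom (B2m and H2-K1). With a library left out it ran from 0 to 3 for stimulation, from 0 to 1 for age, from 0 to 1 for old KO against WT and from 0 to 1 for stimulated KO against WT. Counts over all genes also moved. For stimulation edgeR called 444 genes, DESeq2 1541 and voom 712. For age edgeR called 291, DESeq2 917, the fit of 12 libraries 577, the unfiltered fit 450 and the block 438. For stimulated KO against WT edgeR called 129, the unfiltered fit 340, voom 227 and the fit of 12 libraries 0. Where edgeR called 0, DESeq2 called 137 in young fresh KO, 105 in old KO, and 182 and 104 for the genotype difference in stimulation and age. The unfiltered fit called 10, 18, 0 and 14 there, the fit of 12 libraries 3, 5, 0 and 4, voom 0, 2, 0 and 0, and the block 7 for the difference in age.

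Labels number WT libraries 1 and 2 and KO libraries 3 and 4 in each state. Deviations of same-numbered libraries correlated at -0.00657 to 0.0118 across genes, so no pairing was seen. The labels do not say what the number stands for. Fresh replicates varied widely, so this check could not show whether same-numbered libraries shared an animal or a batch. The block gave 614 called genes for stimulation, left age at 0 members and left both interactions at 0 members. No paired analysis was possible because KO and WT share no number in the comparisons of genotype.

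Signs of log2 fold changes in young fresh KO against WT turned for H2-Ab1 (-0.0095 with RLE scaling, -0.0032 without a filter, -0.0091 with DESeq2), Tapbp (-0.0022 without a filter, -0.18 with voom) and Cd74 (-0.11 with voom). With voom they turned for B2m in old KO against WT (0.022) and H2-Eb1 in stimulated KO against WT (0.089).

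With a library left out, values crossed 0 for H2-D1 with stimulation (-0.019 to 0.30), and for B2m (-0.14 to 0.21) and H2-Aa (-0.16 to 2.19) with age. In young fresh KO against WT they did for H2-K1 (-0.16 to 0.25), H2-D1 (-0.18 to 0.51), Tap1 (-0.17 to 0.27), Tapbp (-0.95 to 0.57), Cd74 (-1.43 to 1.05), H2-Aa (-2.04 to 1.85), H2-Ab1 (-1.81 to 2.55) and H2-Eb1 (-1.33 to 0.87). In old KO against WT they did for B2m (-0.35 to 0.35), H2-D1 (-0.083 to 0.50), H2-Aa (-0.81 to 1.68) and H2-Eb1 (-3.39 to 8.04). In stimulated KO against WT they did for Tapbp (-0.048 to 0.14), Cd74 (-0.82 to 0.59), H2-Aa (-0.32 to 0.60) and H2-Eb1 (-0.67 to 0.91). Of the related genes, H2-T22 also failed to pass for stimulation without a filter, with voom, with the replicate block and in the fit of 12 libraries, and Irf8 in that fit. A group left with 1 library was assumed to vary like the others. With 2 libraries a group and few counts for class II genes and H2-T23, depth and replicate number limit what could be detected.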
